A study of Mus musculus with 8 samples.

Results

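Mast cells with the protease profile of connective tissue made up 244 of the 46314 cells kept from 8 single-cell libraries of CD45.2+ brain cells, or 0.527%. A cell was counted as a mast cell when the unique molecular identifiers (UMIs, 1 per captured transcript) of Mcpt4, Cma1 and Tpsb2 summed to at least 10, at least 1 UMI of Kit or Cpa3 was present, and Mcpt8, a basophil protease, had fewer than 3. The members were thus chosen by the measured UMIs of these 6 genes, and their levels below are a description with no test, as are all ratios of mast cells to other cells. The libraries came from perfused brain tissue of C57BL/6J wild-type (WT) mice and of APPNL-G-F mice (APP), a knock-in line whose App gene carries humanized amyloid sequence with disease mutations and that was labelled as 16 weeks old, as were the WT mice. The study's methods give a younger age than the labels. Within each genotype, 1 library was made from water-drinking controls, 1 after acute colitis from 2% dextran sulfate sodium (DSS) in the water, 1 after chronic colitis from 3 cycles of DSS and water, and 1 from mice with an ovalbumin food allergy. Each library pooled up to 4 hashtag antibodies, 1 per stained sample, but the labels did not say which mouse or sample a hashtag stood for. With 1 library per group, intervals on shares cover counting error only.

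Mast cells are long-lived tissue cells that store histamine, serotonin, heparin-like proteoglycans and proteases in granules and release them when IgE on the high-affinity receptor meets its antigen, or when peptides act on Mrgprb2. They depend on KIT, the receptor for stem cell factor, and their identity is held by GATA2 and MITF. In rodents the connective-tissue type carries chymase Mcpt4 and tryptase, the mucosal type carries Mcpt1 and Mcpt2, and mast cells of the head lie mainly in the meninges and around vessels.

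The 8 mast cell markers that played no part in the choice were checked against that name. Fcer1a, Ms4a2, Hdc, Mrgprb1, Mrgprb2, Gata2, Mitf and Tpsab1 were each at least 4-fold higher in mast cells than in all other cells in 8 of 8 libraries, beside 0.707% of all 18388 genes. The mucosal protease Mcpt1 had 0 UMIs in the 244 cells and Mcpt2 had 7. The microglial markers P2ry12, Tmem119 and Sall1 and the fibroblast markers Col1a1, Col3a1 and Dcn were at 0. The data thus held to the connective-tissue label, and 216 of the 244 cells carried no set of markers of another cell type.

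The promoters of 6 genes are shown because GATA2 was among the markers and a GATA motif lay close to the start of each. The sequences are the 120 bases before the RefSeq start (GRCm38.p6), and capitals mark the GATA motifs AGATAA or TGATAA or AGATAG or TGATAG on either strand.
Mcpt4, chr14:56062311-56062430, minus strand: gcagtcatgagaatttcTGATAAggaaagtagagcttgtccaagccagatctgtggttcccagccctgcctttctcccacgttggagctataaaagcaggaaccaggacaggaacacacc
Cma1, chr14:55944676-55944795, minus strand: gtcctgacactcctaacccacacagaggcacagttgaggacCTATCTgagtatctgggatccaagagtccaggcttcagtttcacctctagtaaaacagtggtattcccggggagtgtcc
Cpa3, chr3:20242182-20242301, minus strand: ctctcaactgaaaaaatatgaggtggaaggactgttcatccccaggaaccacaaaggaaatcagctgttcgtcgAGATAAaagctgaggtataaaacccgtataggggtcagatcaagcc
Mrgprb2, chr7:48558087-48558206, minus strand: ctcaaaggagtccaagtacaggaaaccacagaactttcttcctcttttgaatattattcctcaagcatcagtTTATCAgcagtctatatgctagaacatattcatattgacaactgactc
Fcer1a, chr1:173227230-173227349, minus strand: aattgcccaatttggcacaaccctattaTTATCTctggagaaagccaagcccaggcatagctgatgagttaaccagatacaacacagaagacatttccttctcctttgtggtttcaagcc
Ms4a2, chr19:11623720-11623839, minus strand: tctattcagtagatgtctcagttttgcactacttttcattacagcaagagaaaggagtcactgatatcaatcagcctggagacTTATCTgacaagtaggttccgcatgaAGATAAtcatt
Mcpt4 and Cma1 encode chymases and Cpa3 a carboxypeptidase of the granule, Mrgprb2 is a peptide receptor, and Fcer1a and Ms4a2 encode the alpha and beta chains of the IgE receptor. The capitals began 103 bases before the start of Mcpt4, 79 before Cma1, 46 before Cpa3, 48 before Mrgprb2 and 92 before Fcer1a, and Ms4a2 held motifs at 37 and 11 bases. Of the 25 genes that most set mast cells apart, ranked by their ratio to all other cells, 19 had a RefSeq promoter of 300 bases, and 15 of these, or 78.9%, held a GATA motif, beside 33.0% of all 27025 genes with a promoter. The MITF motifs CATGTG and CACGTG, also read on both strands, were present in 4 of the 19, or 21.1%, beside 22.7% of all genes. A match is a run of letters and was not tied to binding.

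The granule proteases were among the most abundant transcripts. In counts per 1000000 gene UMIs of the summed mast cells (CPM), Mcpt4 stood at 33878 in WT control, 56061 in WT acute, 36585 in WT chronic, 44970 in WT allergy, 29913 in APP control, 29947 in APP acute, 62164 in APP chronic and 41197 in APP allergy. In the cells that carried no markers of another cell type, described below, Mcpt4 stood at 57585 in APP acute and 72525 in APP allergy, the highest of the 8, with 39798 in APP control and 35832 to 62164 in the other libraries. Cma1 averaged 29413 ± 7831 (SD, n = 8 libraries), Tpsb2 16768 and Cpa3 11443, whereas Mcpt4 averaged 2.59 CPM in all other cells. On mm10, Mcpt4 (chr14:56059629-56062313) and Cma1 (chr14:55941451-55944675) lie on the minus strand of chromosome 14, and Tpsb2 (chr17:25366305-25369098) lies on the plus strand of chromosome 17. Together Mcpt4, Cma1 and Tpsb2 took a median of 10.0% of the UMIs of a mast cell, with a range from 0.388% to 23.7%.

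Few cells lay near the limit. Of the kept cells, 12 had a sum of 5 to 9 UMIs and fell just outside, 7 had a sum of 10 to 19, 5 of them counted as mast cells, and 152 mast cells reached 200 or more. The remaining cells with at least 10 UMIs were 3 without Kit or Cpa3 and 2 with Mcpt8. Mast cells had a median of 2841 UMIs against 3270 in the other cells, and 16 of the 244 barcodes also occurred in another library, none of them as a mast cell.

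A group of 28 members also carried markers of another cell type, and these held 31.7% of all mast cell UMIs. Of them, 15 passed the T cell gate, 4 the B cell gate and 2 the macrophage gate, and 8 had at least 10 UMIs of S100a8 and S100a9 or of the neutrophil precursor genes Mpo, Prtn3 and Elane. The largest, in APP acute, had 82081 UMIs. The summed neutrophil markers, led by S100a9, were all 5 detected in mast cells and reached 42851 CPM in APP control and 17669 in APP acute, but 24.9 to 54.8 in WT control, WT acute and APP chronic. Without the 28 cells the same sum lay between 27.3 and 279 CPM in the 8 libraries. The share of proteases in these 28 was lower, with a median of 2.76% against 10.5% in the other 216. Levels below are over all 244 cells unless stated, and where the mixed cells move a level printed by library by over 1.5 times, both are given.

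**Figure D1:**
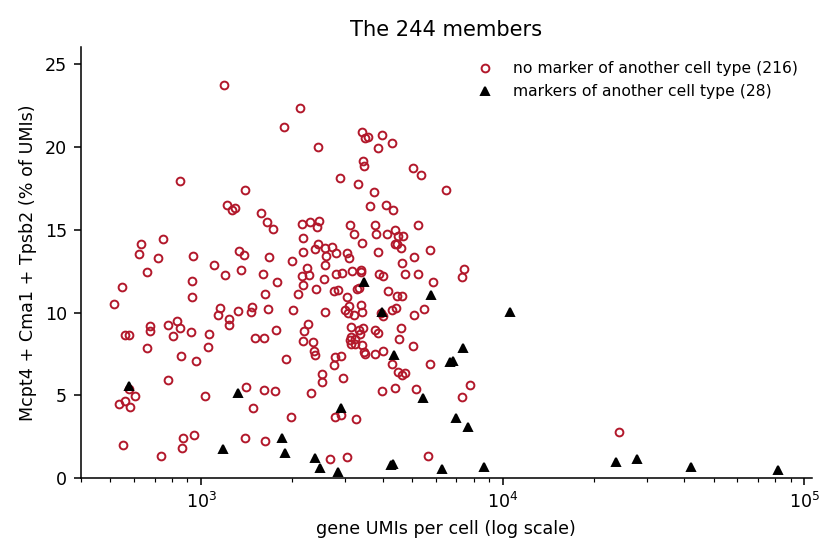
Share of Mcpt4, Cma1 and Tpsb2 in the UMIs of each of the 244 mast cells (vertical axis, percent) against its gene UMIs (horizontal axis, log scale). Circles are the 216 cells with no markers of another cell type and triangles the 28 with such markers, which reach the most UMIs, up to 82081, with low protease shares.

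Among the other proteases, tryptases Tpsab1 and Tpsg1 averaged 683 and 530 CPM in mast cells and were close to 0 in basophils, innate lymphoid cells and macrophages. Tpsab1 and Tpsb2 are close copies, and how the authors' counting treated reads that match both was not examined. Cma2 had 23 UMIs, Gzmb 11 and Mcpt9 0. Cathepsin G (Ctsg) averaged 416 CPM, but 74.9 CPM without the 28 mixed cells. Prss34, the protease of basophils, was at 118 CPM in mast cells and 39464 in basophils.

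Genes for making and storing amines were high. Hdc, which makes histamine, was at 5855 CPM in WT control, 4189 in WT acute, 3003 in WT chronic, 3393 in WT allergy, 3580 in APP control, 1299 in APP acute, 5808 in APP chronic and 2902 in APP allergy. Leaving out the mixed cells gave 2565 in APP acute and 5095 in APP allergy, and 3388 to 6585 in the other 6 libraries. Tph1, which starts serotonin synthesis, averaged 819 CPM over the 8 libraries and was highest in the control libraries, at 2010 CPM in WT and 1292 in APP, with 306 to 795 in the 6 treated ones. The APP libraries lay closer together without the mixed cells, at 1351 CPM in control, 1056 in acute, 795 in chronic and 1036 in allergy, while WT control stood at 2373 and the treated WT libraries at 312 to 565. The serotonin transporter Slc6a4 averaged 889 CPM and the vesicle transporter Slc18a2 411. Tph1 had a UMI in 69.3% of mast cells and in 0.0660% of B cells, which had a median of 2497 UMIs.

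Proteoglycan genes form the matrix that holds the granule content. The core protein Srgn averaged 3586 CPM, and the heparan sulfate enzymes Ndst2 and Hs6st2 averaged 280 and 184. Ndst1, the related enzyme, was at 12.2 CPM. Of the 15 genes for amines and proteoglycans, 8 were at least 4-fold higher than in other cells in 8 of 8 libraries, beside 0.707% of all genes.

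All 3 chains of the IgE receptor were found. Fcer1a averaged 1346 CPM, Ms4a2 341 and the shared gamma chain Fcer1g 2507 in mast cells. Over cells summed across libraries, mast cells had 1230, 312 and 2388 CPM and basophils 1754, 748 and 2190. Without the mixed cells, summed mast cells had 1668, 421 and 2997 CPM. Of the signalling genes downstream, the adaptor Lat2 averaged 465 CPM and was at least 4-fold above other cells in every library, whereas Lyn at 225, Fyn at 108 and Syk at 85.3 did not reach that mark. In all, 3 of 16 genes of this list met that mark, beside 0.707% of all genes.

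Of the 25 genes with the largest ratio to other cells, 5 were genes of the gate and 12 were on the other lists. The others included Cyp11a1, Speer4d, Slc45a3, Gnai1, Atp8b5, Pmp22 and Rab27b. Cyp11a1, which starts steroid synthesis, averaged 646 CPM (342 to 1155 over libraries) and had a UMI in 68.9% of mast cells against 0.273% of B cells. Rab27b, a small GTPase of granule release, averaged 593 CPM against 10.9 in other cells, with a UMI in 76.2% of mast cells.

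Receptors beyond IgE told mast cells from basophils. Mrgprb2 averaged 316 CPM and Mrgprb1 1134, and both were at or near 0 in basophils. Mrgprb2 was found in 50.8% of mast cells and in 0.0283% of B cells. The interleukin-33 receptor Il1rl1 averaged 873 CPM, the adenosine receptor Adora3 448, and the endothelin receptor Ednra 135. The inhibitory-family receptor Cd200r3 averaged 342 CPM in mast cells and 409 in basophils. The substance P receptor Tacr1 and the chemokine receptor Cxcr2 had 0 UMIs, and Itgae had 4.

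Among lipid mediators, the prostaglandin D synthase Hpgds averaged 228 CPM and passed the 4-fold mark in 8 of 8 libraries, the only gene of 10 on its list to do so, beside 0.707% of all genes. Alox5, which starts leukotriene synthesis, averaged 155 CPM in mast cells and 499 in basophils. Ptgs2 had 1 UMI, and Ptges and Tbxas1 had 0.

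Of the transcription factors, Gata2 averaged 590 CPM, Mitf 196, Hes1 190 and Meis2 103. Gata2 was at 830 CPM in basophils too, whereas Mitf was at 1.48 and Meis2 at 0 there. Cebpa, a factor of granulocytes and basophils, averaged 3.46 CPM in mast cells and 393 in basophils. Gata2, Mitf, Hes1 and Meis2 were the 4 members of the list of 20 that stood at least 4-fold above other cells in 8 of 8 libraries, beside 0.707% of all genes. Hes1, at 179 CPM over the summed mast cells, was also at 200 in innate lymphoid cells and 116 in fibroblasts.

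**Figure D2:**
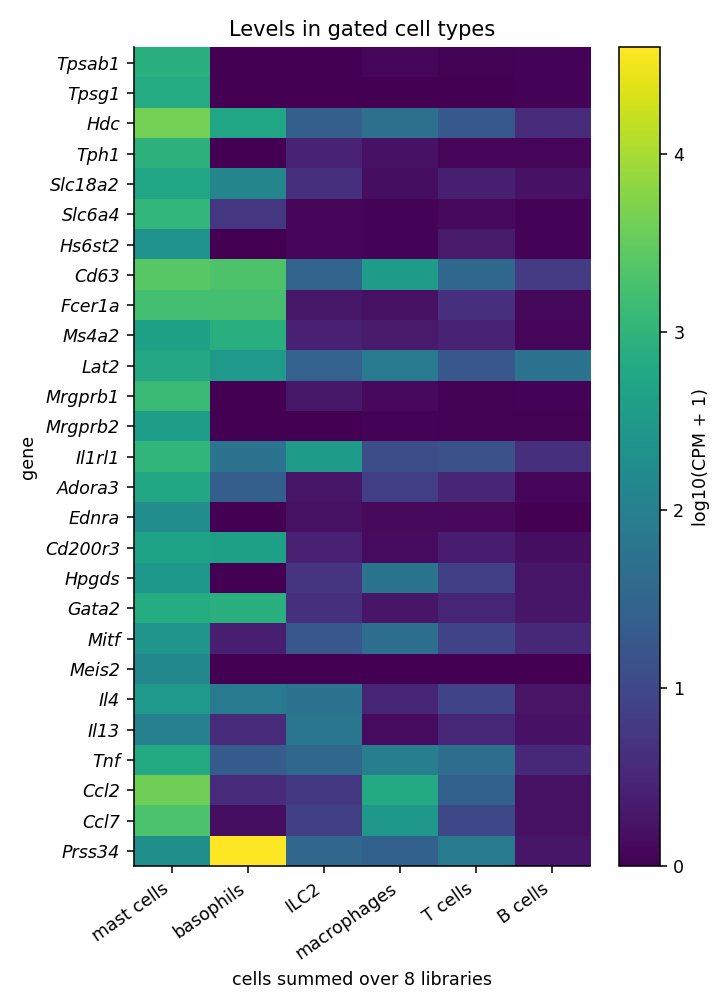
Level of 27 genes (rows) in mast cells without markers of another cell type and in 5 other gated cell types (columns), as log10(CPM + 1) of UMIs summed over the 8 libraries. Mrgprb1, Mrgprb2, Tpsab1, Tpsg1 and Meis2 are bright in the mast cell column alone among these columns, while Fcer1a, Ms4a2, Gata2 and Cd200r3 are shared with basophils and Prss34 is brightest in basophils.

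Of the 26 cytokine and chemokine genes, 20 had at least 1 UMI in mast cells, and Ccl2, Ccl7, Tnf and Il4, 4 of the 26, were at least 4-fold higher than in other cells in 8 of 8 libraries, beside 0.707% of all genes. The monocyte chemokine Ccl2 averaged 3087 CPM and its neighbour on chromosome 11, Ccl7, 1762, and Ccl7 had UMIs in 43.9% of mast cells against 92.2% for Ccl2, with 0.245% and 0.226% of B cells. Tnf averaged 519 CPM, and Il4, the type 2 cytokine, 249. Il4 was at 248 CPM in WT control, 291 in WT acute, 233 in WT chronic, 424 in WT allergy, 325 in APP control, 111 in APP acute, 219 in APP chronic and 144 in APP allergy. When the mixed cells were left out, Il4 was at 221 CPM in APP acute and 248 in APP allergy. Il1b and Cxcl2, high in macrophages, were the 2 genes of the list at least 4-fold lower than in other cells in 8 of 8 libraries, beside 0.0979% of all genes, at 9.88 and 15.7 CPM. Tgfb1, Csf1 and Osm averaged 244, 117 and 85.3 CPM. Il13 averaged 73.9 CPM, and Il3, Il5, Il9, Il10, Csf2 and Il33 had 0 UMIs. A 0 in 902611 mast cell UMIs allows up to 3 UMIs, and these counts include the 28 mixed cells. The share of free RNA, estimated from immunoglobulin and hemoglobin UMIs, came to 0.823 to 1.78% of mast cell UMIs in 6 libraries. The estimates of 9.47% in WT chronic and 23.8% in APP allergy also count the immunoglobulin of members that passed the B cell gate, with 4360 UMIs in WT chronic and 42072 in APP allergy. WT control and WT acute each held such a member too, so in these 4 libraries the estimate is not of free RNA alone. The summed B cell markers stood at 2598 CPM in APP allergy with the mixed cells and at 167 or less in every library without them. Subtracting the 8 estimates as they stand, those 4 included, took the cytokine list from 6374 to 6606 CPM, and left the mean of each of the 13 function lists within 1 SD between libraries.

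Mast cells were sparse in cell cycle transcripts, with Mki67 in 2.87% of cells and a summed level of 10 cycle genes of 336 CPM. Without the mixed cells Mki67 averaged 18.4 CPM against 158 in other cells. Interferon-stimulated genes summed to 542 CPM, with Rsad2 at 0. Kitl, the ligand of KIT, was at 0, and Mcl1, a survival gene, averaged 644 CPM.

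Immediate-early genes, which rise within minutes of a stimulus or of handling, made up a large part of the profile. The 10 of the list summed to 41736 ± 10887 CPM (SD, n = 8 libraries), led by Jun at 8983, Fos at 6742 and Egr1 at 6174. Heat shock genes summed to 6950 CPM, led by Hspa8. Across single mast cells without other markers the immediate-early sum had a median of 53055 CPM in the hashtag groups with high T cell levels described next.

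The same genes split the hashtag groups into 2 sets. In T cells, their summed level was 3731 to 7299 CPM in 16 hashtag groups and 772 to 1932 in the other 14, with a 1.93-fold gap between, and each library held 2 groups of the high set. These sets were drawn from the T cells and are not groups of the study. Of the 244 mast cells, 235 lay in the high set, 0.783% of its 30014 cells, and 9 in the low set, 0.0552% of its 16300 cells (exact 95% intervals 0.686 to 0.889% and 0.0253 to 0.105%). In the low set, 8 of the 14 groups, with 5806 cells, held none. What the sets stand for was not given in the labels, and its part in the mast cell share was not tested.

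**Figure D3:**
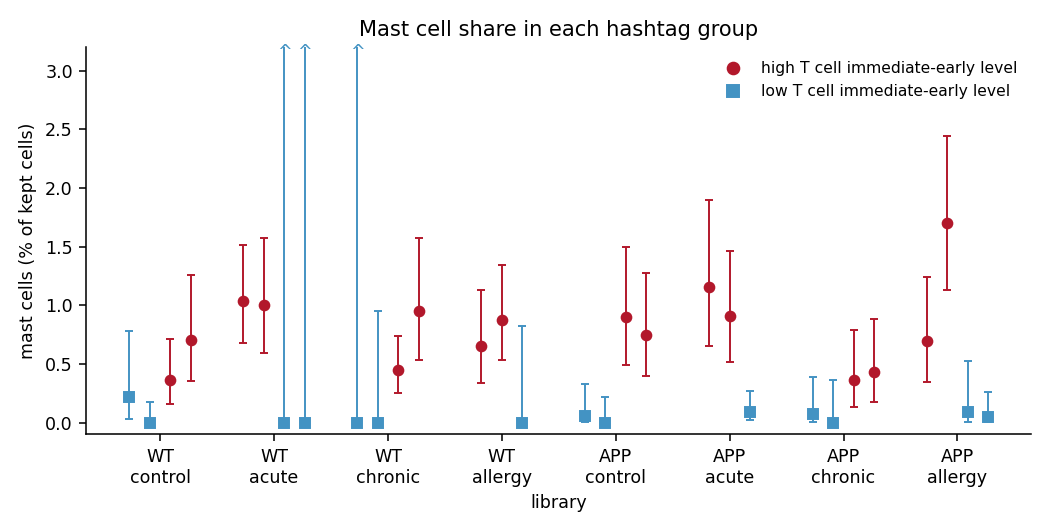
Mast cells as a percent of kept cells (vertical axis) in each of the 30 hashtag groups, by library; bars are exact 95% binomial intervals for counting error, and 3 marked ^ run past the axis in groups of 108, 54 and 31 cells. Circles are hashtag groups with high T cell immediate-early levels, from 0.362 to 1.70%, and squares those with low levels, at most 0.217%.

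The mast cell share differed between libraries. It was 0.311% in WT control (21 of 6747 cells), 0.982% in WT acute (44 of 4479), 0.563% in WT chronic (30 of 5327) and 0.698% in WT allergy (32 of 4584). In APP mice it was 0.418% in control (28 of 6700), 0.541% in acute (34 of 6282), 0.244% in chronic (14 of 5742) and 0.635% in allergy (41 of 6453). Within the high set the shares in WT were 0.505% in control, 1.02% in acute, 0.611% in chronic and 0.773% in allergy. In APP they were 0.819%, 1.01%, 0.395% and 1.21% in the same order. WT acute was above WT control by 0.671 points (95% interval 0.357 to 1.03), and by 0.515 points within the high set (0.119 to 0.915). For WT chronic and WT allergy against WT control the differences, 0.252 and 0.387 points, lay beyond counting error over all cells but not within the high set, where the intervals ran from -0.238 to 0.435 and from -0.104 to 0.643.

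In APP mice, no treated library differed from the control beyond counting error over all cells, with intervals from -0.126 to 0.379 points for acute, -0.390 to 0.0423 for chronic and -0.0404 to 0.483 for allergy. Within the high set, APP chronic minus APP control was -0.424 points (-0.838 to -0.0298). The intervals are between 2 libraries, not between conditions. With hashtag groups of at least 100 cells as the units, 3 or 4 a library, none of 7 comparisons passed an exact two-sided permutation test. Their p ran from 0.286 to 0.743, with an adjusted p of 0.743 for all, and the smallest p this design allows was 0.0571 for 3 against 4 groups and 0.0286 for 4 against 4. Each library kept 2 high-set groups, but WT acute, WT chronic, WT allergy and APP acute kept 1 low-set group and the others 2. The permutation did not hold the sets apart, so its spread and the means compared also carry their mix. For APP chronic the study gives fewer mice than there were hashtag groups, so groups may share an animal, and the p-values treat them as separate.

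Between genotypes, the APP library was lower in 3 of 4 treatment pairs, with a mean difference of -0.179 points (exact sign-flip p = 0.375, two-sided), and 4 pairs cannot reach 0.05 in this test. Within the high set the mean difference was 0.132 points in the other direction (exact sign-flip p = 0.5), and 2 of 4 pairs were lower in APP. APP acute, for which 3218 of 6282 cells were in 1 low group, minus WT acute gave -0.441 points over all cells and -0.00748 points within the high set (interval -0.481 to 0.497). Fewer mast cells and more of the other cells cannot be told apart in such shares.

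The immediate-early level of mast cells stood against that of T cells in the same hashtag groups. In the high set, mast cells without other markers had summed levels from 32523 to 84427 CPM. In the low set, where 5 such cells were found, the 4 groups with one stood at 1513, 12545, 15188 and 18602 CPM. Fos was at 8768 CPM over the high-set and 2650 over the low-set cells, Dusp1 at 3920 and 288, and Mcpt4 at 53139 and 29724, the low-set values resting on 5 cells. Single cells overlapped, as 27 of 211 high-set cells lay at or under the highest of the 5. Within the high set no relation between the 2 cell types passed the test (Pearson r = -0.13, permutation p = 0.632; Spearman rho = 0.01, permutation p = 0.961; n = 16 hashtag groups), and r was -0.12 without the 2 groups farthest from the median and 0.08 within libraries. This was 1 of 4 relations, with an adjusted p of 0.637 for Pearson and 0.987 for Spearman.

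**Figure D4:**
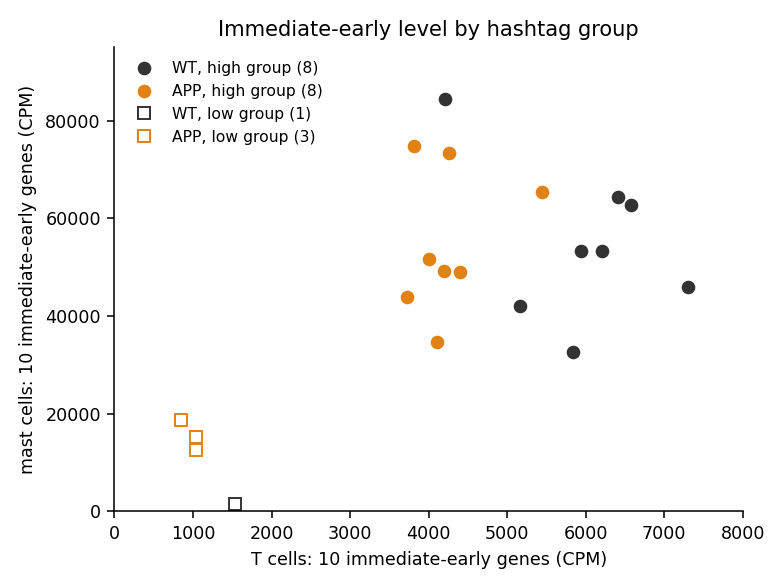
Summed level of 10 immediate-early genes (CPM) in mast cells without markers of another cell type (vertical axis) against T cells of the same hashtag group (horizontal axis); filled circles are the 16 high-set groups and open squares the 4 low-set groups that held such a mast cell. The open squares lie at or below 18602 CPM and the filled circles at or above 32523.

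The shares of fibroblasts, macrophages and innate lymphoid cells in the 16 high-set groups showed no relation to the mast cell share that passed the test. Pearson r was 0.30 for fibroblasts (permutation p = 0.254), 0.26 for macrophages (p = 0.330) and -0.13 for innate lymphoid cells (p = 0.637) by the same permutation test, with Spearman rho of 0.38 (permutation p = 0.146), 0.39 (p = 0.141) and -0.01 (p = 0.987). Adjusted over the 4 relations, the Pearson p was 0.637 for each. Without the 2 farthest groups r was 0.30, 0.10 and -0.23. The 16 groups are 2 from each library, and within libraries r was 0.43, 0.01 and 0.43, so the sign for innate lymphoid cells turned.

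Genotype and treatment effects on gene levels were fitted with edgeR's quasi-likelihood test on UMIs summed per library (genotype plus treatment, 8 libraries, 2202 genes). For genotype, 3 genes passed an adjusted p of 0.05, 2 higher in APP, or 0.0908% of those tested, and 1 lower, or 0.0454%. The genes higher in APP were the neutrophil precursor genes Prtn3 and Mpo. Prtn3 had 97 UMIs in APP control, 999 in APP acute, 1 in APP chronic and 123 in APP allergy against 0, 0, 2 and 0 in the WT libraries, and Mpo stood at 30.5, 2908, 0 and 752 CPM against 0, 8.31, 0 and 11.8. In the 216 cells without other markers both genes lay between 0 and 27.4 CPM in every library, which the removal of cells with 10 or more UMIs of Mpo, Prtn3 and Elane in part fixes, and 3 members were over that limit. With DESeq2 the adjusted p was 0.0769 for both genes, and edgeR's call of Prtn3 was lost without WT acute (adjusted p = 0.113) or without APP acute (0.0700).

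The gene lower in APP was Nr4a3, a nuclear receptor among the early response genes. It was at 236 CPM in WT control, 191 in WT acute, 316 in WT chronic, 224 in WT allergy, 50.9 in APP control, 22.1 in APP acute, 82.2 in APP chronic and 44.2 in APP allergy. Its level without the mixed cells was 274, 210, 354 and 199 CPM in WT control, acute, chronic and allergy, and 69.3, 46.4, 82.2 and 86.4 in APP. The 4 WT libraries lay above the 4 APP libraries in both cases, but how many of all genes tested separate this way was not counted. The log2 fold change was -2.34 ± 0.36 (SE, edgeR, adjusted p = 0.0374), on 19 to 38 UMIs a library in WT and 3 to 8 in APP. Without the mixed cells it was -1.81 ± 0.36 with an adjusted p of 0.0603, with DESeq2 the adjusted p was 0.0640, and the edgeR call was also lost without WT acute (adjusted p = 0.0934), without APP acute (0.108) and with sums per hashtag group (0.102). T cells of the high set had 38.5 to 73.2 CPM of Nr4a3 in WT and 22.0 to 171 in APP, without a common direction. In B cells of the high set it was 2.61 to 5.28 CPM in WT and 0.798 to 3.57 in APP, and in all other cells 18.5 to 41.9 and 6.78 to 24.7, lower in APP in each of the 4 treatment pairs for both. Innate lymphoid cells had 80.9 to 161 CPM in WT and 52.6 to 96.6 in APP, and macrophages 18.2 to 27.2 and 2.05 to 27.5. Whether mast cells differ in this from other cells was not tested. The T cells' summed immediate-early level was 4203 to 7299 CPM in the WT and 3731 to 5438 in the APP groups, and its part in Nr4a3 was not tested.

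The gene lists gave no call in the fit with its filter on low counts. Of 177 genes on the 12 lists, 86 could be tested and 0 passed for genotype or for any treatment, also with DESeq2. At an unadjusted p under 0.05, 12 passed for genotype, 6 for acute, 5 for chronic and 3 for allergy by edgeR, and 12, 6, 4 and 3 by DESeq2, beside 202, 106, 66 and 72 of all 2202 genes by edgeR and 95, 57, 35 and 30 by DESeq2. With no filter on low counts, edgeR called Socs3 lower in each treatment, Ctsg higher in acute and allergy, and Hspa1a, Hspa1b, Tnf and Ccl4 lower in APP. Of all 12856 genes in that fit, 63 were called for genotype, 27 for acute, 23 for chronic and 30 for allergy. Leaving out 1 library, which also lets more genes be tested, called Hspa1b in 5, Hspa1a in 3 and Tnf in 2 of the 8 fits for genotype, and Socs3 in 3 fits each for acute and allergy and 1 for chronic. Ccl4 for genotype and Ube2c for chronic were each called in 1 such fit. Over all 2620 to 3188 genes tested without 1 library, 9 to 43 were called for genotype, and the counts for treatments are given in the closing section. Hspa1a and Hspa1b are close copies. For the 10 immediate-early genes the median log2 difference between genotypes was -0.50, with 10 of 10 below 0, and for the 9 cytokines and chemokines tested it was -0.84, with 9 of 9 below 0, beside a median of 0.00 over all genes. Without the mixed cells these medians were -0.14, with 7 of 9 below 0, and -0.56, with 7 of 8 below 0. The IgE receptor list had a median of 0.02 for genotype, -0.11 for acute, 0.04 for chronic and 0.19 for allergy.

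Acute colitis gave 1 call by edgeR, Mpo, at 6.28 ± 0.78 (log2, SE, adjusted p = 0.0309), 0.0454% of the genes tested. Of the acute libraries, APP acute had 526 UMIs of Mpo, all in its 3 mixed cells, and WT acute had 1. The call was lost with DESeq2, without APP acute (edgeR, adjusted p = 0.996) and without APP control, where the log2 difference was 3.91. Chronic colitis and food allergy gave 0 calls by edgeR and by DESeq2, with 66 and 72 genes at an unadjusted p under 0.05 by edgeR and 35 and 30 by DESeq2. Their smallest p fell to Cd3g, Trdv4 and Socs3 for chronic and to Mpo, Trdv4 and Socs3 for allergy, none of which passed. Cd3g and Trdv4 are T cell receptor genes, and cells with 3 or more Cd3 UMIs are among those removed as mixed, so their levels of 42.6 CPM or less without the mixed cells follow in part from the removal.

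Socs3, a feedback inhibitor of cytokine signals, had most of its UMIs in cells without other markers. It had 33 UMIs in WT control and 15 in APP control, and 1 in WT acute, 3 in WT chronic, 1 in WT allergy, 4 in APP acute, 0 in APP chronic and 2 in APP allergy. Without the mixed cells it stood at 468 and 173 CPM in the control libraries and at 23.2 or less in the treated ones. These control levels were carried by few cells of the high set. In WT control, 23 UMIs lay in 3 of 10 cells of hashtag 7 and 6 in 3 of 7 cells of hashtag 6, and in APP control 6 lay in 2 of 10 and 4 in 3 of 13. Its log2 differences from control were -3.81 ± 0.74 for acute (adjusted p = 0.132), -3.93 ± 0.86 for chronic (adjusted p = 0.642) and -4.16 ± 0.81 for allergy (adjusted p = 0.263) in edgeR. In macrophages of the high set Socs3 was also highest in the control libraries, at 789 CPM in WT and 582 in APP against 105 to 470 in the treated ones. T cells had 214 CPM in WT control against 92.4 to 141, and 161 in APP control against 77.2 to 93.7. B cells had 59.2 against 8.35 to 20.8 and 15.2 against 3.99 to 6.76. Innate lymphoid cells had 67.3 against 16.5 to 56.2 in WT, but 27.1 against 6.57 to 28.1 in APP. Whether mast cells differ from these cell types was not tested for Socs3.

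Ly6a, Slc7a8, Gm43305 and Gapdh were singled out after their values were seen, from fits on the 216 cells without other markers. Ly6a, the surface antigen Sca-1 of a family of close copies, was at 7570 CPM in WT control and 5891 in APP control, and at 1495 in WT acute, 2318 in WT chronic, 3479 in WT allergy, 2043 in APP acute, 1918 in APP chronic and 3551 in APP allergy. Over all 244 cells APP acute was at 1050 CPM, and the other libraries moved by less than 1.5 times. Over hashtag groups of the high set, the 4 control groups ranged from 5467 to 8937 CPM and the 12 treated groups from 1024 to 4562, without overlap. Of the 1514 genes tested in these cells, 9, or 0.594%, were likewise higher in every control group than in any treated one. With edgeR, 0.198% of the 1514 genes were called lower for acute and 0.0661% for chronic. For Ly6a the log2 difference from control was -1.89 ± 0.30 for acute (adjusted p = 0.00416), -1.64 ± 0.30 for chronic (adjusted p = 0.0467) and -0.92 ± 0.29 for allergy (adjusted p = 0.628) in edgeR. Over all 244 cells the values were -2.04 ± 0.43, -1.41 ± 0.43 and -0.76 ± 0.42, with edgeR adjusted p of 0.185, 0.9995 and 0.9996, while DESeq2 gave an adjusted p of 3.6e-05 for acute.

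Mast cells without other markers had more Ly6a than T cells, B cells, innate lymphoid cells and macrophages of the high set in each library. Over all 244 cells this did not hold in APP acute, where mast cells had 1050 CPM and B cells 1141. B cells of the high set had 713 CPM in WT control against 433 to 840 in the treated WT libraries. In APP they had 1463 in control against 967 to 1536. T cells of the high set had 716 CPM of Ly6a in WT control against 323 to 666 in the treated WT libraries and 554 in APP control against 462 to 615. Innate lymphoid cells had 1234 against 930 to 1288 in WT, and 842 against 1048 to 1216 in APP. The difference between cell types was not tested.

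Slc7a8, a transporter of neutral amino acids, was at 1049 CPM in WT control and 641 in APP control, at 301 in WT acute and 163 in APP acute, and at 442 in WT chronic, 412 in WT allergy, 466 in APP chronic and 378 in APP allergy. Over all 244 cells APP acute was at 77.4 CPM and APP allergy at 232. Its log2 difference for acute was -1.80 ± 0.34 without the mixed cells (adjusted p = 0.0254) and -2.08 ± 0.49 over all cells (adjusted p = 0.339). The noncoding gene Gm43305 was at 613 and 485 CPM in the controls and at 119 in WT acute, 23.2 in APP acute, 373 in WT chronic, 327 in WT allergy, 219 in APP chronic and 183 in APP allergy. In APP acute it was at 88.5 CPM over all 244 cells. The acute contrast gave a log2 difference of -2.88 ± 0.44 (adjusted p = 0.00416) and, over all cells, -2.20 ± 0.41 (adjusted p = 0.106). Innate lymphoid cells of the high set also had less Gm43305 in the acute libraries, at 587 CPM against 1098 in WT and 309 against 791 in APP, and for Slc7a8 they had 199 against 246 and 148 against 259. The other cell types did not share this in full. T cells had less Gm43305 in acute, at 102 CPM against 121 in WT and 98.9 against 121 in APP. For Slc7a8 they had more, at 8.15 against 6.65 and 15.4 against 4.60. For Gm43305, B cells had 842 CPM in WT acute against 648 in control and 429 against 607 in APP, and macrophages 514 against 338 and 270 against 378. For Slc7a8, macrophages had 62.4 against 41.8 in WT and 56.3 against 30.5 in APP. Whether mast cells differ from these cell types was not tested. These 2 genes and Ly6a were the 3 genes that passed for acute without the mixed cells in sums per library, all lower. With sums per hashtag group, 11 of 572 genes passed without the mixed cells, 3 higher and 8 lower.

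For genotype, the 1 call without the mixed cells was Gapdh, a glycolytic enzyme with many pseudogene copies, or 0.0661% of those tested. Its level was 565 to 682 CPM in the 4 WT and 104 to 324 in the 4 APP libraries without the mixed cells, a log2 difference of -1.56 ± 0.26 (edgeR, adjusted p = 0.0213). Over all 244 cells the levels were 546 to 706 CPM in WT and 448, 713, 192 and 442 in APP control, acute, chronic and allergy, and the difference was -0.48 ± 0.32 with an edgeR adjusted p of 0.620. Gapdh was lower in the APP libraries in every cell type looked at in the high set. T cells had 668 to 1055 CPM in WT against 382 to 538 in APP, and B cells 448 to 669 against 173 to 266.

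**Figure D5:**
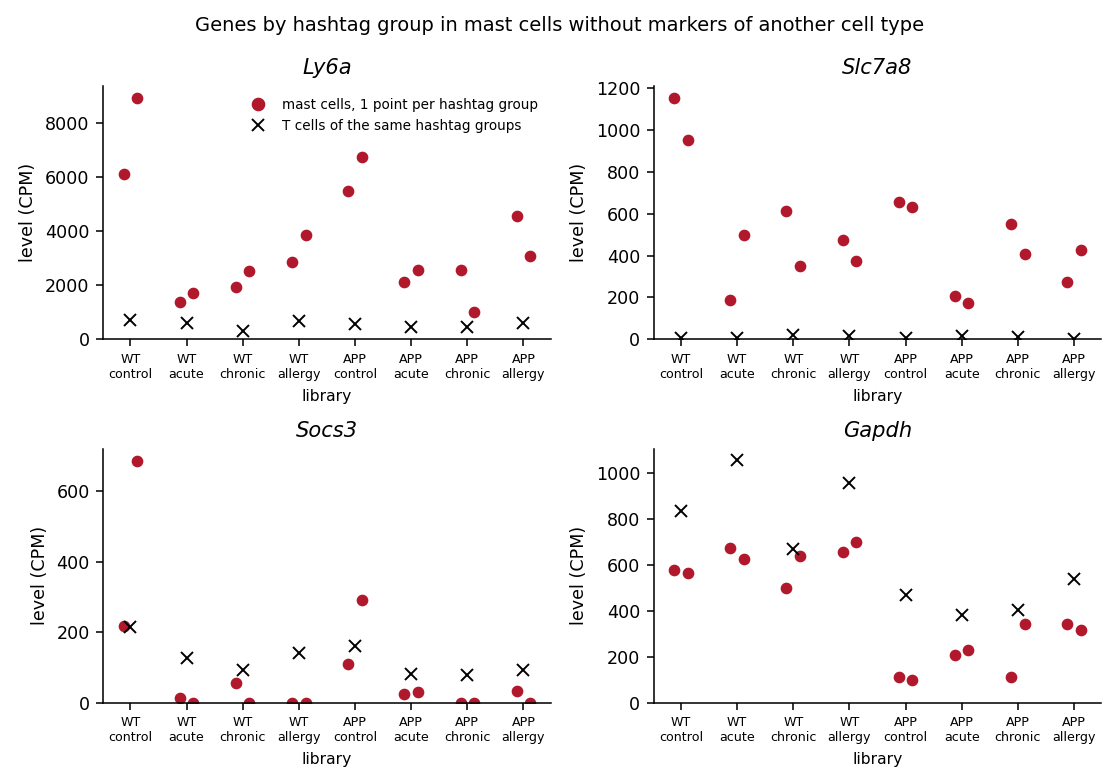
Levels (CPM, vertical axes) of Ly6a, Slc7a8, Socs3 and Gapdh in mast cells without markers of another cell type, 1 red point per high-set hashtag group, with T cells summed over the same groups of a library as crosses, by library (horizontal axes). Ly6a is at 5467 CPM or more in control groups and at 4562 or less in treated ones, Socs3 and Slc7a8 are also highest in controls, and Gapdh is lower in APP in both cell types.

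Mast cells varied among themselves within a library. Apart from the genes that chose the cells, the 10 with the largest variance of Pearson residuals were Gm42418, Malat1, Ccl7, Jun, Egr1, S100a9, Fos, Junb, Ier2 and S100a8. S100a9 had 99.1% of its UMIs in 10 cells and S100a8 99.3%. Without the mixed cells both left this list, which the removal of cells with 10 or more of their UMIs fixes. Egr1, Fos and Ier2 left it too, and Lars2, Mt1, Klf2, Ccl2 and Nr4a1 entered. Ccl7 had a residual variance of 17.3 there, against a median of 0.986 over 3709 genes, with 41.7% of its UMIs in 10 cells. Gm42418 overlaps ribosomal RNA sequence, and its level is uncertain.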

How the data were processed

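Cells positive for CD45.2 were sorted from brain and run on 10x 5′ chemistry. The deposited values were raw UMI counts per gene and hashtag for each barcode, made by the authors with Cell Ranger (6.1.2 per the labels, 4 in the file headers) on mm10, with no further normalization. The members and gene lists were chosen with earlier results of these data known. Barcodes with at least 500 gene UMIs, 200 genes, at most 5% mitochondrial UMIs, and a top hashtag of at least 50 counts and 3 times the second were kept, and no other doublet caller was run. A member was called mixed when it passed the gate of another cell type (at least 3 Cd3 UMIs for T cells, 5 Cd79 for B cells, 10 complement C1q for macrophages or 10 collagen for fibroblasts, among others) or had 10 UMIs of neutrophil genes. CPM were computed per 1000000 gene UMIs of summed cells, and ratios to other cells with 10 CPM added. Mast cell averages are means over the 8 libraries, whereas basophil levels are over cells summed across all libraries. The self-test of the genotype fit used simulated counts of 2202 genes, with the same spread for every gene, no treatment effects and no mixed cells. It recovered 91 of 100 genes changed 4-fold and 100 of 100 changed 16-fold, with 10 false calls. The spread of the real genes was not matched, so these rates need not hold for the real counts. Sums per library were tested with edgeR 4.0.16 (quasi-likelihood, TMM, filterByExpr, Benjamini-Hochberg adjustment), and DESeq2 1.42.0 was the alternative. Hashtag shares were tested by exact permutation and relations with 100000 permutations (scipy 1.17.1), and intervals are exact binomial for shares and Newcombe for differences. Named genes were the listed genes, the 25 with the largest ratio to other cells and at least 50 CPM in every library, the 5 largest rises and falls that passed in each contrast or the 3 with the smallest p, and the 10 most variable among genes in at least 10% of mast cells. Alternatives changed the filters, gate, scaling, unit of summing and the libraries used. Mast cells had 36500 to 180887 gene UMIs a library. Each group has 1 library, so p-values measure the spread between libraries of different groups.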

Additional observations from a re-analysis of the deposited data

Results flagged for a closer look

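Among the 4 WT libraries, 1 stood far from the others in the summed level of a gene list in 3 cases. For transcription factors, WT control was highest at 3672 CPM, with 2533 to 2645 in the other WT libraries. For cell cycle genes, WT chronic was highest at 873 CPM against 47.1 to 99.2. Of the 120215 mast cell UMIs of WT chronic, 24367 came from 1 member that was not counted as mixed. Its part in this level was not tested. For interferon-stimulated genes, WT allergy was highest at 1190 CPM against 408 to 515. In all, 32 groups of 4 values were looked at, and chance marks about 1 in 20. Most were list levels in the 4 libraries of a genotype, and the rest were mast cell shares of the 4 hashtag groups in a library.

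The mast cell share moved in opposite directions from control to chronic colitis, by 0.252 points in WT and -0.174 in APP. The difference between the genotypes was not tested, since each rests on 1 library.

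A further 88 barcodes met the mast cell gate but did not carry 1 clear hashtag, 1.83% of the 4806 barcodes left out for that reason (exact 95% interval 1.47 to 2.25%).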

How the results depend on the processing

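No paired analysis was possible because each group has 1 library, except by treatment: the genotype difference in share was taken over the 4 treatment pairs, and treatment was a term of the edgeR fit. With no hashtag filter, the mast cell share of WT allergy was 1.17%. In the high hashtag groups alone, chosen after seeing the data, the shares were 0.505% in WT control, 0.819% in APP control, 1.01% in APP acute, 0.395% in APP chronic and 1.21% in APP allergy, with 1.02%, 0.611% and 0.773% in WT acute, chronic and allergy, and the genotype difference reversed to 0.132 points. Leaving out 1 treatment pair gave -0.274 to -0.0918 points. Leaving out 1 hashtag group gave 0.178 to 0.695 points for WT acute against control, -0.0967 to 0.381 for WT chronic, 0.00381 to 0.440 for WT allergy, 0.0729 to 0.605 for APP acute, -0.354 to -0.0544 for APP chronic, -0.147 to 0.404 for APP allergy and -0.0521 to 0.247 for APP control against WT control. In the last, the values -0.00210 and -0.00229 also reversed. Without the mixed cells, the genes of the gate summed to 126027 CPM and the IgE list to 7681. For genotype, 0 genes passed with DESeq2 (95 at an unadjusted p under 0.05), 0 with sums per hashtag group and 1 without the mixed cells, by library or by hashtag group. For acute, 12 passed with sums per hashtag group, 6 higher and 6 lower. Without the mixed cells 3 passed by library, all lower, and 11 by hashtag group, 3 higher and 8 lower. For chronic, 1 passed without the mixed cells in either way of summing. With no filter on low counts, 63, 27, 23 and 30 of 12856 genes passed for genotype, acute, chronic and allergy. Leaving out 1 library gave 9 to 43, 0 to 8, 0 to 10 and 0 to 21 calls, with 2620 to 3188 genes tested in place of 2202. The cause of these moves was not tested. Hashtag groups of a library share its capture, so their sums are not independent samples.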
